A study of Homo sapiens with 41 samples.

Results

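Tubulin genes and 2 genes for enzymes that modify tubulin were followed through every peak list of the series. The set holds 4 α-tubulin genes (TUBA1A, TUBA1B, TUBA1C and TUBA4A), 4 β-tubulin genes (TUBB, TUBB2A, TUBB4B and TUBB8), the α-tubulin acetyltransferase gene ATAT1 and the polyglutamylase gene TTLL4. These 10 genes, of 19974 protein-coding genes on chromosomes 1 to 22 and X, were taken by name, with a rule that uses no measured value. They were chosen with earlier results of these data known. For each gene, peaks were taken that touched the gene body or 5000 bases on either side at GRCh38. A promoter peak is one within 1000 bases of a RefSeq gene start.

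Microtubules are polymers of α- and β-tubulin dimers. ATAT1 acetylates a lysine in the microtubule lumen, HDAC6 is the main enzyme that removes this mark, and TTLL4 adds glutamate side chains to tubulin tails and to other proteins. HDAC6 is largely cytoplasmic, and this series measured it on chromatin. The lists therefore report on the tubulin genes as DNA, and hold no measure of tubulin protein, its acetylation or its RNA.

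All samples came from MDA-MB231, an established human triple-negative breast cancer cell line, with 100000 cells per library. The untreated cells (Ctrl) and cells given the HDAC6 inhibitor Nexturastat A (NextA, 5 µM for 2 days) were profiled by ChIP for HDAC6, for acetylated histone H3 (titled Pan-acetyl) and for the Rpb1 subunit of RNA polymerase II (PolII), and by ATAC for open chromatin. Cells with a hairpin against HDAC6 (shHDAC6) and cells with a control hairpin (shCtrl) were profiled for PolII and by ATAC; HDAC6 ChIP was also made in shHDAC6 cells, with no matching list from shCtrl cells, and HDAC6 CUT&Tag in Ctrl cells. Each ChIP and CUT&Tag group had 2 lists and each ATAC group 3, which gave 32 lists for 41 samples; the other 9 samples, all inputs or a negative control, were not analysed here. HDAC6 ChIP replicate 1 of Ctrl and NextA used an antibody from CST and replicate 2 one from Novus, which also made both shHDAC6 lists and both CUT&Tag lists. The labels say nothing of the hairpins' vector or of clones, nor that replicates were separate cultures, so the spread between lists may be technical.

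The lists differed widely in length, and this touches every comparison below. They held from 235 to 79666 peaks. The HDAC6 lists labelled NextA held 3256 and 235, against 28590 and 63833 in Ctrl cells. The acetyl-H3 lists held 1418 and 41411 in Ctrl cells and 28473 and 61186 with NextA. Lists of the same group were also scored differently. In ChIP of Ctrl and NextA cells, peaks were scored by q in replicate 1 and by p in replicate 2. In ATAC of these cells only replicate 1 was scored by q. The Ctrl PolII lists had a lowest −log10 q of 1.009 and 0.115. The Ctrl ATAC lists had median peak widths of 407, 705 and 699 bases. All PolII and ATAC lists of hairpin cells were scored by p. How far this shaped covered length was not tested. Gaps in the peak numbers show that many lists are subsets of a longer one; the HDAC6 NextA list of replicate 2 keeps 0.103% of the peaks numbered. Read depth is not known from peak lists. The names in that list carry a prefix used otherwise for shCtrl PolII lists, and CUT&Tag replicate 2 carries a hairpin prefix; both stayed in the group their labels give. VIM, CD44 and AXL, markers of mesenchymal breast cancer cells, had promoter ATAC peaks in 3 of 3 Ctrl lists, against 0 of 3 for CDH1 (epithelial), PTPRC (leukocyte) and SYN1 (neuronal), and 1 of 3 for ESR1. PolII and ATAC peaks were present at the HDAC6 promoter in every group, with or without the hairpin; a hairpin acts on RNA, so this does not check its effect.

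The 250 bases before the gene start are shown for 5 tubulin genes, because HDAC6, acetylated H3 or ATAC peaks at these bases carry the results that follow. They are RefSeq's promoter entries at GRCh38.p14, printed 5′ to 3′ on the gene's own strand. For TUBB only the bases before its first RefSeq start are shown. Capitals mark matches, on either strand, to any of 5 motifs: the CCAAT box (CCAAT), the GC box (GGGCGG), the TATA box (TATAAA), the cyclic AMP response element core (TGACG) and the E box (CACGTG).
TUBB4B, chr9:137241037-137241286, plus strand: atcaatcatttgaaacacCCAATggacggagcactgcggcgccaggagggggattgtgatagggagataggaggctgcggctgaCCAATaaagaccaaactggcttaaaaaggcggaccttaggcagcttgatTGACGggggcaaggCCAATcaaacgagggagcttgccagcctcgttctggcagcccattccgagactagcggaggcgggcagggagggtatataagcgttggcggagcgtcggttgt
TUBA1B, chr12:49131396-49131645, minus strand: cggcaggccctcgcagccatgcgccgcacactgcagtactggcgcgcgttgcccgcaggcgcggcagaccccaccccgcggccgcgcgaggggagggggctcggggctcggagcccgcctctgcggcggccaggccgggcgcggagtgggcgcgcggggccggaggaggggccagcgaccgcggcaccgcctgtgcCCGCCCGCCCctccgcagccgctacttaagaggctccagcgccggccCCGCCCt
TUBB2A, chr6:3157545-3157794, minus strand: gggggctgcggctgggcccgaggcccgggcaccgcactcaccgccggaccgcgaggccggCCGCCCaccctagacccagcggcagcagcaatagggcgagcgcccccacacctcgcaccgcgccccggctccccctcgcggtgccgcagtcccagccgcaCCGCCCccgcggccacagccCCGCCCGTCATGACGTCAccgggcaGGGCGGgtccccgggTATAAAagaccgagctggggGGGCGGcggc
TUBB, chr6:30720102-30720351, plus strand: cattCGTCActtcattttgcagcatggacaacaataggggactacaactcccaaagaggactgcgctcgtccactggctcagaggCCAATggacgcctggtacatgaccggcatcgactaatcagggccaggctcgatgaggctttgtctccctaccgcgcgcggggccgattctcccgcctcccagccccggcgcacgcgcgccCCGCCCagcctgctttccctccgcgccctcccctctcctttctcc
TUBA1A, chr12:49189081-49189330, minus strand: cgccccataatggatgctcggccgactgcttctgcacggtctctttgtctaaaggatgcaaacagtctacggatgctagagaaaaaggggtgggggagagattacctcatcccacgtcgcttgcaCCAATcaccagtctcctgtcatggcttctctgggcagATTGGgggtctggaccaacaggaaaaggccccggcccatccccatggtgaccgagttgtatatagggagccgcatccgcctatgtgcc

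These 5 promoters differed in composition. TUBB4B held 3 CCAAT boxes, starting at -232, -166 and -103 from the gene start, 1 TGACG at -117 and no GC box, and was 57.3% G and C over the 300 bases of the entry (250 before and 50 after the start). TUBA1B held 3 GC boxes, of which the matches at -54 and -50 overlap, and no CCAAT box, at 77.0% G and C. TUBB2A held 5 GC boxes, a TATA box at -30 and 3 matches to TGACG at -65, -60 and -57, of which the last pair overlap; the match at -65 overlaps a GC box. TUBA1A held 2 CCAAT boxes, at -125 and -88. Over all 35116 promoter entries, 34.6% held a CCAAT box, 45% a GC box, 11.5% a TATA box, 24.6% TGACG and 7.26% an E box, with a median G and C content of 58.7%. Entries were found for 9 of the 10 genes, 12 entries in all, since TUBA1C and TUBB have several starts. By entry, as in the shares above, 6 of 12 held a CCAAT box, 8 a GC box, 4 TGACG, 2 an E box and 1 a TATA box. By gene, where any entry counts, 4 held a CCAAT box, 7 a GC box, 4 TGACG, 2 an E box and 1 a TATA box. For TTLL4 the start was taken as the end of its gene record that held peaks in more lists.

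The 9 genes other than TUBB8 had a promoter PolII peak in each of the 8 PolII lists. Of all protein-coding genes, 55.1% had a promoter peak and 62.3% a window peak in all 4 Ctrl and NextA lists, and 62.3% a promoter peak and 69.7% a window peak in all 4 shCtrl and shHDAC6 lists. TUBB8 had no peak within 1000 bases of its RefSeq start, at 49296 inside its gene record, in any of the 32 lists. The heatmap of promoter percentiles gives each gene in each list; a percentile is the share of peaks in the same list whose fold enrichment, as the authors' peak caller gave it, is no higher.

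**Figure D1:**
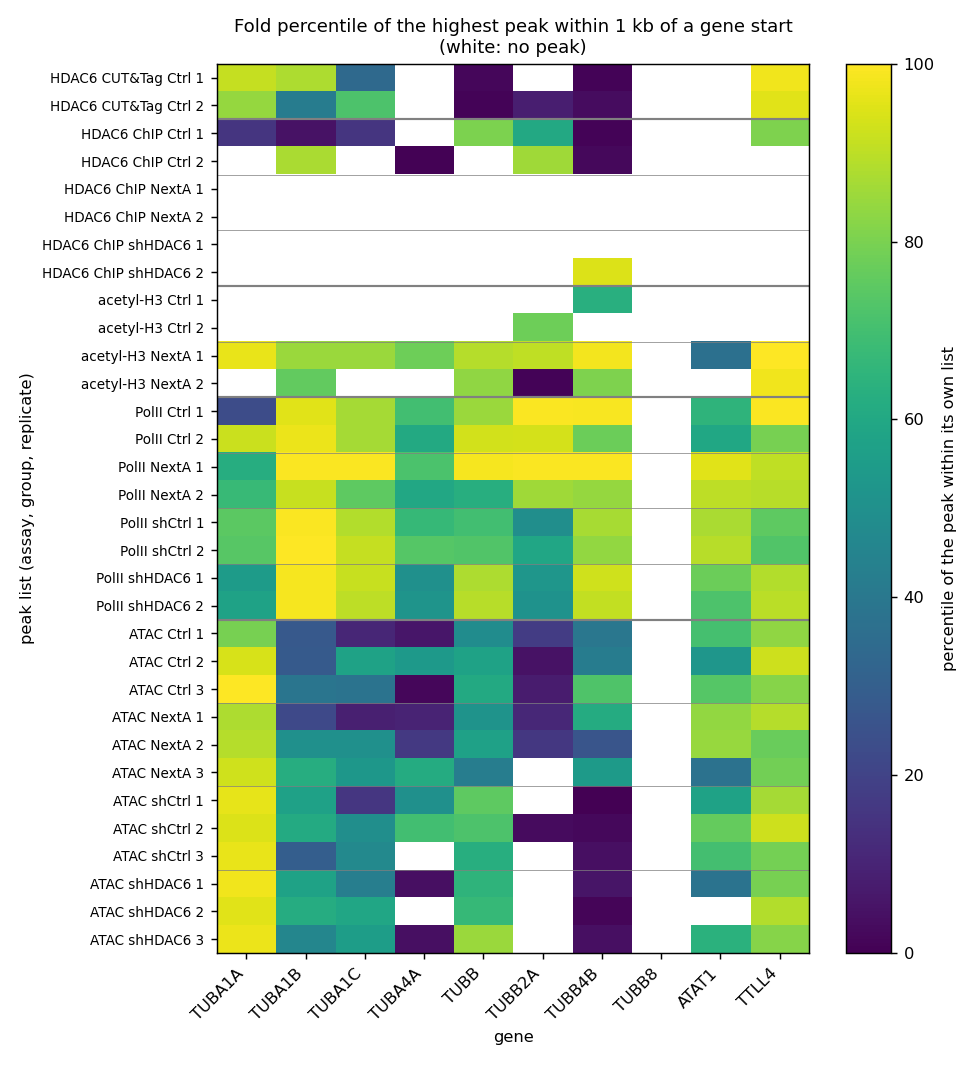
Promoter peaks of the 10 genes in all 32 peak lists. Rows are lists, columns are genes and colour is the percentile of the highest promoter peak's fold within its own list; white cells have no promoter peak. TUBB8 is white in every row, and the rows for HDAC6 in NextA cells are white for every gene.

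TUBA1B (chr12:49127782-49131395, minus strand), a major α-tubulin gene of dividing cells, had the highest promoter PolII percentile of the α-tubulin genes in 7 of 8 lists, all but NextA replicate 1, where TUBA1C was as high at 99.5. Its promoter peak ranked at 95.6 and 97.2 in the 2 Ctrl lists, 99.4 and 91.6 with NextA, 99.6 and 99.8 in shCtrl cells and 98.7 and 98.7 in shHDAC6 cells. All 8 lists thus placed it at or above 91.6, while its ATAC peak ranked between 22.01 and 62.5 over 12 lists. TUBA1A (chr12:49184795-49189080, minus strand), an α-tubulin gene best known for its role in neurons, showed the reverse order of assays. Its ATAC peak ranked between 79.6 and 99.7 over 12 lists, while its PolII peak ranked at 23.2 and 92.0 in Ctrl cells and from 54.7 to 74.9 in the other 6 lists. The 2 Ctrl PolII lists thus were further apart at TUBA1A than at any other of the 9 promoters.

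TUBA1C (chr12:49227926-49274600, plus strand) has 3 RefSeq starts, at 49227926, 49228019 and 49265082. Its promoter peaks in the PolII lists all lay at the last of these, as did those of acetylated H3 and of HDAC6. A second site lay 5765 to 6436 bases downstream of the middle start in all 8 PolII lists, and HDAC6 CUT&Tag, HDAC6 ChIP with the CST antibody in Ctrl cells and acetylated H3 in NextA replicate 1 had peaks there too. TUBA4A (chr2:219249710-219254740, minus strand) shares its upstream region with TUBA4B, and its window holds the starts of STK16 and GLB1L. Its highest PolII peak lay over those neighbours' starts and not its own in both shCtrl lists (percentiles 93.2 and 91.4, against 67.1 and 73.6 at its own start) and in both shHDAC6 lists (94.4 and 94.2, against 50.3 and 51.7). Another window peak also ranked above its own start in Ctrl replicate 2 (93.8 against 60.6) and both NextA lists (78.4 against 71.5 and 80.5 against 60.1). In Ctrl replicate 1 its own start held the highest peak, at 69.9. Peaks in the TUBA4A window are therefore partly those of other genes.

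Among the β-tubulin genes, TUBB4B (chr9:137241287-137243707, plus strand), expressed widely and a component of cilia, was marked in the most lists: it had a promoter peak in 28 of 32. PolII peaks covered 100% of its gene body in all 8 lists. TUBB (chr6:30720352-30725422, plus strand), the β-tubulin gene of most dividing cells, had 63.4 and 56.0% of its body covered in shHDAC6 cells and 75.9 and 76.0% in shCtrl cells. The 2 Ctrl lists were further apart, at 100 and 50.2%, and those with NextA gave 100 and 80.6%. The TUBB window also takes in a peak over the MDC1 start in every PolII and ATAC list. TUBB2A (chr6:3153666-3157544, minus strand) had a high PolII and a low ATAC rank at its start in Ctrl cells: PolII ranked at 99.6 and 93.5, but the ATAC peak there ranked at 17.6, 4.77 and 7.67. PolII at the start ranked at 99.5 and 85.7 with NextA, but only at 49.3 and 59.2 in shCtrl and 52.5 and 50.9 in shHDAC6 cells. In those 4 hairpin lists the highest PolII peak of the window, at 78.5 to 90.9, was not at its start. A stronger ATAC site lay 4616 to 4939 bases upstream in the 3 Ctrl ATAC lists, at percentiles 49.9, 72.9 and 79.5. Both CUT&Tag lists had an HDAC6 peak at that upstream site, at 15.2 and 78.5. TUBB8 (chr10:46455-76621, minus strand), a tubulin gene of oocytes, had peaks in 10 lists, all at least 19563 bases upstream of its RefSeq start at 49296. They lay toward 76621, the upstream end of its gene record. That end was not counted as a start, so peaks there are not among the promoter peaks.

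The 2 modifier genes differed in how their windows were marked. TTLL4 (chr2:218710835-218759724) had a compact PolII peak at its start, 651 to 1043 bases wide over the 8 lists, and PolII peaks covered 1.01 to 1.74% of this long gene. ATAT1 (chr6:30626874-30646821, plus strand) had PolII peaks at its own start in 8 of 8 lists, and a second peak 19517 to 19969 bases downstream, over the start of C6orf136. The HDAC6 peaks of the ATAT1 window all lay at the C6orf136 start. No HDAC6 list, of 8, had a peak within 1000 bases of the ATAT1 start.

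HDAC6 occupancy in untreated cells was read from 2 ChIP lists and 2 CUT&Tag lists. A peak in all 4 lists was found in the windows of 6 genes (TUBA1B, TUBA1C, TUBA4A, TUBB2A, TUBB4B and TTLL4), where 31.6% of all protein-coding genes met the same rule. Without CUT&Tag replicate 2, whose prefix differs from its label, the counts were 6 and 33.2%. Within the gene bodies alone, 3 genes (TUBA1B, TUBA1C and TTLL4) met it, against 22.4% of genes. At promoters the count was 2, TUBA1B and TUBB4B, against 9.09% of genes. By method, 6 windows had a peak in both ChIP lists, against 46.8% of genes, and 9, all but TUBB8, in both CUT&Tag lists, against 49.2%. At promoters, 3 genes were marked in both ChIP lists (TUBA1B, TUBB2A and TUBB4B, against 16.5% of genes) and 6 in both CUT&Tag lists (TUBA1A, TUBA1B, TUBA1C, TUBB, TUBB4B and TTLL4, against 36.5%).

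The 4 lists ranked the same promoter very differently. TUBA1B had percentiles of 87.6 and 41.9 by CUT&Tag, 4.83 with the CST antibody and 87.3 with the Novus antibody. TUBB4B was low in all 4, at 0.851 and 3.29 by CUT&Tag and 1.02 and 2.17 by ChIP. TTLL4 ranked at 98.0 and 95.7 by CUT&Tag and 80.7 with the CST antibody; with the Novus antibody it had no promoter peak, and its window peaks lay 10393 and 25842 bases into the gene. TTLL4 thus held the highest HDAC6 percentile of the 10 genes in both CUT&Tag lists. TUBB2A ranked at 60.3 and 85.6 by ChIP, but its promoter had a CUT&Tag peak in 1 of 2 lists, at 8.46.

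Position along the printed bases also differed between lists. At TUBA1B both ChIP peaks covered all 250 bases, while the CUT&Tag peaks, 993 and 1243 bases wide, covered 0 and 53 of them and otherwise lay inside the gene. At TUBB4B the CUT&Tag peaks covered 150 and 250 of the printed bases, which hold the 3 CCAAT boxes, and the ChIP peaks 39 and 250. At TUBB2A both ChIP peaks covered all 250. The −log10 q of the Novus ChIP peaks was 0.255 at TUBA1B, 0.065 at TUBB4B and 0.704 at TUBB2A. With peaks limited to a −log10 q of at least 2, no gene of the 10 kept a window peak in all 4 lists, and 0.205% of all genes did.

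In NextA-treated cells the HDAC6 lists held no promoter peak for any of the 10 genes, nor for 19070 of the 19974 protein-coding genes. The same 6 windows that were marked in both Ctrl ChIP lists had no peak in either list labelled NextA, a pattern shown by 41.2% of all protein-coding genes. At promoters, 3 genes (TUBA1B, TUBB2A and TUBB4B) showed it, against 15% of genes. None showed the opposite pattern, and 0% of genes did. Covered length gives the same 6 genes: for TUBB4B it was 1.06 and 1.71 kb in Ctrl and 0 in both NextA lists, and for TTLL4 1.04 and 1.70 kb against 0. All genes met this rule of shorter cover at 45.9%; without Ctrl replicate 2, 10 of the 10 genes and 68.8% of all genes did. The 6 windows and 41.7% of all genes showed the pattern when the short Novus NextA list was left out. The 1 peak that remained in any window was at the C6orf136 start beside ATAT1, in the CST list, at percentile 10.4.

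The NextA lists were short throughout, and the part of list length in this loss was not separated from that of treatment. When each list was cut to its 235 highest peaks, none of the 10 genes and 0% of all genes showed the pattern. With no gene called at all, this cut cannot separate list length from treatment. In shHDAC6 cells, by the Novus antibody, 3 windows had a peak, while 29.3% and 20.5% of all genes had one in the 2 lists. TUBA1C had 1 in each list, neither at its starts. TUBB8 had 1 in replicate 2. The TUBB4B promoter had a peak in replicate 2 that covered all 250 printed bases, at percentile 94.7, where the Novus Ctrl peak ranked at 2.17; these 2 lists differ in length, so no change can be read from the ranks.

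Acetylated histone H3 peaks were in more of these windows with NextA, as in more windows of all genes. In Ctrl cells replicate 1 had a peak in 1 of the 10 windows (TUBB4B) and replicate 2 in 4 (TUBA1A, TUBA4A, TUBB2A and TTLL4); with NextA the counts were 10 and 7. Of all protein-coding genes, 8.23% and 49.6% had a window peak in the Ctrl lists and 71.6% and 65.9% in the NextA lists. A peak in both NextA lists and in neither Ctrl list was found for ATAT1, TUBA1B, TUBB and TUBB8, that is 4 windows, against 17.7% of genes. At promoters it was found for 3 genes (TUBA1B, TUBB and TTLL4), against 20.3%. No window and no promoter showed the reverse, and 0% of all genes did. Covered length was shorter with NextA for none, against 0.00501% of genes.

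TTLL4 had the highest acetyl-H3 percentiles of the set with NextA. Its promoter peak ranked at 99.9 and 97.7, and both Ctrl lists lacked a promoter peak, though replicate 2 had 2 peaks further inside the gene. TUBA1B ranked at 84.9 and 75.8 with NextA and TUBB at 89.0 and 83.6. The TUBB peaks, 2270 and 3411 bases wide, started 132 and 214 bases after the first gene start, whereas the HDAC6 CST peak in Ctrl cells lay within the printed bases before it. TUBB has a second RefSeq start at 30721638, and both acetyl-H3 peaks covered all 250 bases before that start, which are not printed. Of the HDAC6 lists only CUT&Tag replicate 2 had a peak over those bases, covering 208 of them, at percentile 0.503. TUBB4B ranked at 98.4 and 80.5 with NextA and at 63.2 in Ctrl replicate 1, with no peak in Ctrl replicate 2. The ATAT1 count rests on its neighbour: both NextA lists had the peak at the C6orf136 start, and only replicate 1 had one at the ATAT1 start, at percentile 37.0.

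Covered length of acetyl-H3 peaks was longer in both NextA lists than in both Ctrl lists for 6 genes (ATAT1, TUBA1B, TUBB, TUBB2A, TUBB4B and TUBB8), against 39% of genes. TUBB had 0 kb in both Ctrl lists against 3.05 and 3.41 kb, and TUBA1B 0 kb in both against 1.87 and 3.58 kb. TUBB2A was 0 and 1.01 kb in Ctrl and 2.15 and 1.03 kb with NextA, so its groups are separated by a narrow margin. The median change, as the NextA mean minus the Ctrl mean, was 1.07 kb over the 10 genes and 1.10 kb over the 17359 genes with any cover. Without Ctrl replicate 1, the list of 1418 peaks, 5 windows were gained and 19.9% of genes, and 1 gene (TTLL4) had shorter cover with NextA, against 11.4%; without Ctrl replicate 2, 6 windows were gained and 46.4% of genes. At a −log10 q of at least 2, none of the 10 was gained and 0.846% of genes were.

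**Figure D2:**
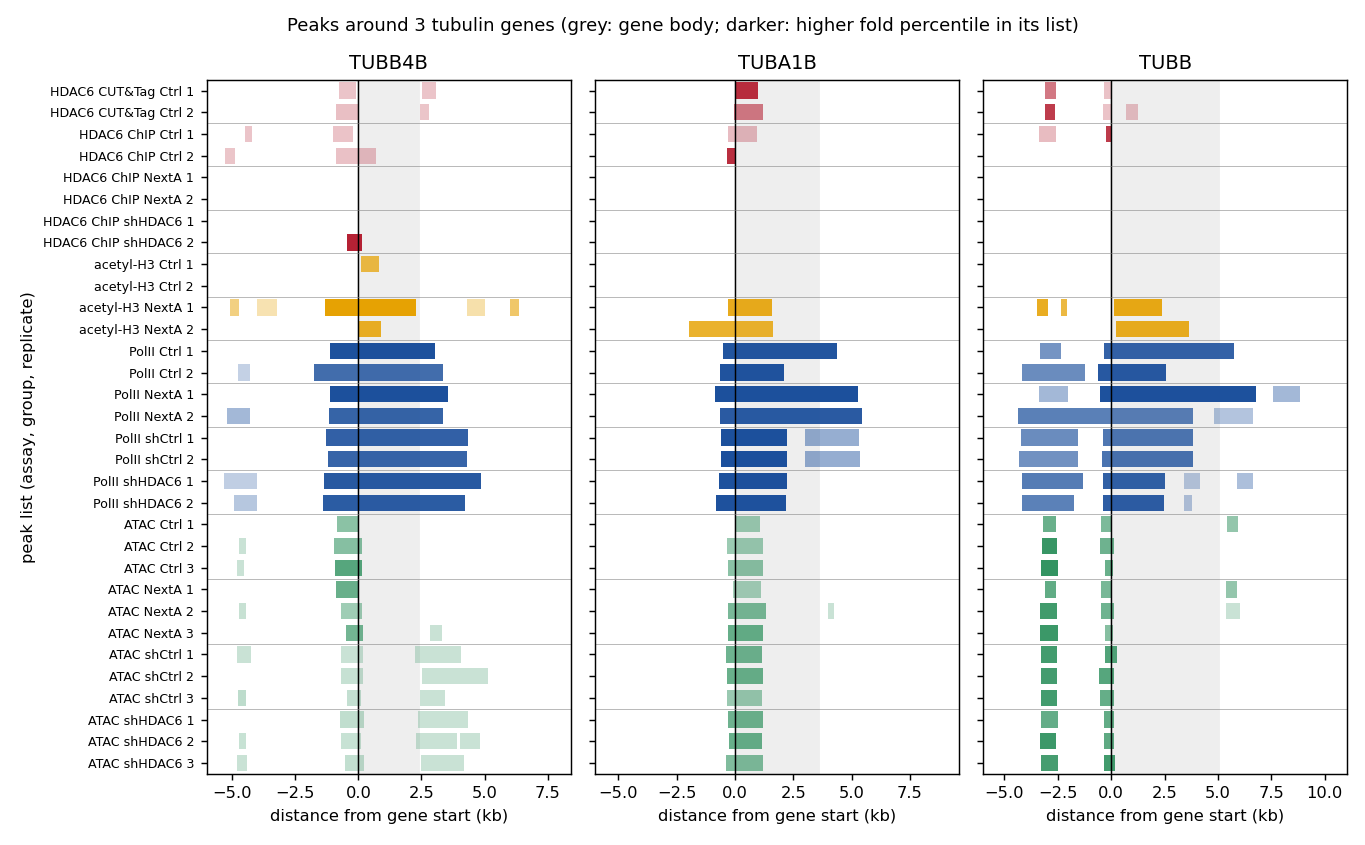
Peaks around TUBB4B, TUBA1B and TUBB in all 32 lists. The x axis is the distance from the first gene start in kb, in the direction of transcription, rows are lists, grey shading is the gene body and darker bars have a higher fold percentile in their list. PolII peaks span the TUBB4B body in all 8 lists, and the TUBA1B peak of 2299 or 2374 bases about 3 kb past the start is seen in both shCtrl lists and in neither shHDAC6 list.

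PolII peaks in the 10 windows were neither gained nor lost with NextA, where 0.215% and 0.11% of genes were. The length they covered was longer in both NextA lists than in both Ctrl lists for 4 genes, ATAT1, TUBA1B, TUBA1C and TUBB, against 14% of all genes, and shorter for none, against 1.27%. TUBB was covered over 7.102 and 6.097 kb in Ctrl and 9.92 and 10.05 kb with NextA, or 6.60 ± 0.71 and 9.99 ± 0.09 kb (mean ± SD, n = 2 each). TUBA1B was covered over 4.89 and 2.73 kb in Ctrl and 6.13 and 6.06 kb with NextA. TUBA1C gave 10.44 and 6.19 kb against 12.68 and 11.22 kb. ATAT1 gave 2.61 and 2.62 kb against 3.83 and 3.42 kb. In each of the 4 genes both NextA lists lay above both Ctrl lists. Without Ctrl replicate 2 the longer count was 7, against 42.9% of genes; without Ctrl replicate 1 the shorter count was 4, against 28.6%. Leaving out either NextA list gave a shorter count of 1, TUBA4A without replicate 1 (7.64% of genes) and TUBA1A without replicate 2 (9.2%). With lists matched by replicate number, a block, the same 4 genes were longer, against 30.5% of all genes, and TUBA1A was shorter, against 5.82%. With 2 lists against 2, an exact two-sided permutation test cannot give a p below 0.333, so no p is given for any such contrast.

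The added length lay in different places. At TUBB, peaks reached further beyond the gene's end than in Ctrl cells and, in replicate 2, filled the gap to the MDC1 peak, which there ran together with the TUBB peak into 1 peak of 8206 bases. At TUBA1B the peak ran past the gene's end in both NextA lists, and less far in Ctrl replicate 1. The median change over the 10 genes was 1.23 kb, against 0.273 kb over the 16255 genes with any cover. TUBA4A gave 4.28 and 3.74 kb in Ctrl and 8.22 and 3.04 kb with NextA, so its NextA lists lay on both sides of the Ctrl lists. TUBB4B (4.15 and 5.58 kb against 4.70 and 5.23 kb) and TUBA1A (1.58 and 1.94 kb against 1.56 and 1.73 kb) overlapped between the groups.

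**Figure D3:**
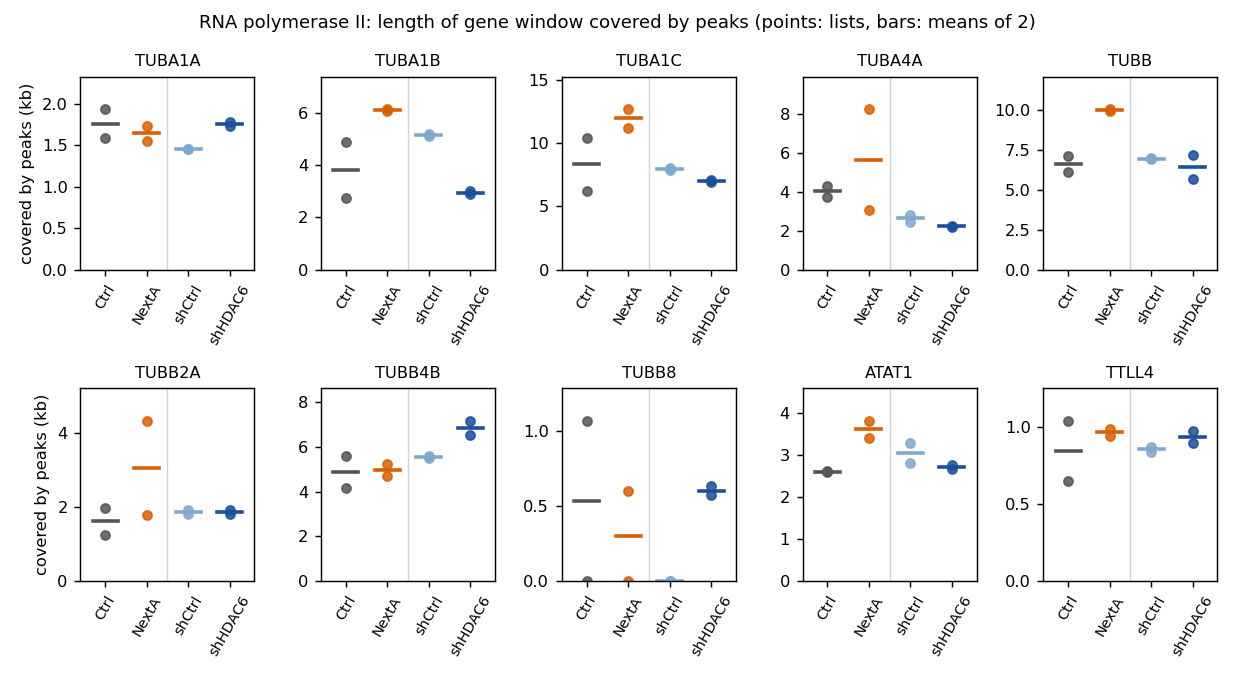
Length of each gene window covered by PolII peaks, in kb, in Ctrl, NextA, shCtrl and shHDAC6 cells. Points are the 2 lists of each group and bars their means; each panel has its own axis from 0. TUBA1B, TUBA1C and ATAT1 lie above Ctrl with NextA and below shCtrl with shHDAC6.

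In shHDAC6 cells the PolII lists split the set. Covered length was shorter in both shHDAC6 lists than in both shCtrl lists for 4 genes (ATAT1, TUBA1B, TUBA1C and TUBA4A), against 26.1% of genes, and longer for 4 (TUBA1A, TUBB4B, TUBB8 and TTLL4), against 20%. TUBA1B gave 5.12 and 5.18 kb in shCtrl cells and 2.89 and 2.99 kb in shHDAC6 cells. This difference came from 1 peak of 2299 and 2374 bases, about 3 kb downstream of the start, present in both shCtrl lists at percentiles 27.9 and 28.3 and in neither shHDAC6 list. The −log10 q of that peak was 0.892 and 0.797. With peaks limited to a −log10 q of at least 2 the direction of TUBA1B turned: it was among 5 genes with longer cover in shHDAC6 cells (22.7% of genes), and the 4 shorter genes were ATAT1, TUBA1C, TUBA4A and TUBB (20.3%). The promoter peak itself stayed near 2.8 to 3.0 kb wide in all 4 lists.

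TUBB4B moved the other way, with 5.61 and 5.48 kb in shCtrl cells and 7.17 and 6.53 kb in shHDAC6 cells. Its added length included a peak 4019 and 4027 bases upstream, in both shHDAC6 lists and in neither shCtrl list, at percentiles 3.14 and 9.09; Ctrl replicate 2 and NextA replicate 2 had a peak near that site too. TUBA1A gave 1.45 and 1.45 kb against 1.74 and 1.78 kb, and TTLL4 0.842 and 0.871 kb against 0.897 and 0.978 kb, small differences with no overlap. TUBA1C (7.87 and 8.02 kb against 6.92 and 7.07 kb), TUBA4A (2.78 and 2.47 kb against 2.22 and 2.21 kb) and ATAT1 (3.30 and 2.82 kb against 2.68 and 2.77 kb) were shorter; for TUBA4A, a peak 3088 and 3143 bases downstream of its start in shCtrl cells was missing in both shHDAC6 lists. TUBB (6.91 and 7.02 kb against 7.20 and 5.68 kb) and TUBB2A (1.81 and 1.91 kb against 1.82 and 1.91 kb) overlapped. TUBB8 was the 1 window with a PolII peak gained, against 0.751% of genes, 27043 bases upstream of its start in both lists, and none was lost, against 0.686%. A PolII peak near that site was also present in Ctrl replicate 2 and NextA replicate 2.

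ATAT1, TUBA1B and TUBA1C were longer with NextA and shorter with shHDAC6. These 3 of 10 compare with 6.36% of all genes, and none of the 10 showed the reverse pair, which 0.431% of genes did; none was longer with both, against 2.32%. At a −log10 q of at least 2, of these 3 genes only ATAT1 was longer with NextA and shorter with shHDAC6; TUBA1B was longer in both contrasts, and TUBA1C was not among the genes longer with NextA. At equal list length ATAT1 was not among the genes shorter with shHDAC6. This pairing of contrasts was chosen after the values were seen. The 2 contrasts share no lists. Lists of shCtrl and Ctrl cells, neither with a hairpin against HDAC6, also differed. ATAT1 and TUBA1B had longer PolII cover in both shCtrl lists than in both Ctrl lists (2 of 10, against 16.1% of genes). TUBA1A and TUBA4A had shorter cover (2 of 10, against 13.6%). Both counts are near the share of all genes. The comparison of shCtrl with Ctrl was chosen after the values were seen. In it, the PolII list of Ctrl replicate 1 was scored by q and the other PolII lists by p.

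A promoter ATAC peak was present in every Ctrl and NextA list for 8 of the 10 genes, all but TUBB2A and TUBB8, against 49.2% of genes. It was present in every shCtrl and shHDAC6 list for 6 (TUBA1A, TUBA1B, TUBA1C, TUBB, TUBB4B and TTLL4), against 47.7%. None of the 10 windows was lost or gained with NextA, where 0.025% and 0.165% of genes were, or with shHDAC6, where 0.21% and 0.17% were. With NextA no covered length was longer in every list, against 3.03% of genes, or shorter in every list, against 2.35%. When each NextA list was compared with the Ctrl list of the same replicate number, TUBA1C (1.78, 2.95 and 2.96 kb in Ctrl against 1.12, 2.36 and 2.32 kb) and TUBB4B (0.905, 1.40 and 1.36 kb against 0.879, 1.14 and 1.17 kb) were shorter in all 3 pairs, that is 2 genes against 10.2% of all genes. The same 2 were shorter without Ctrl replicate 1 (11.9% of genes), and TUBA4A alone was without Ctrl replicate 3 (4.01%) or without NextA replicate 3 (3.91%). Whether same-numbered ATAC lists are paired samples is not known. With 3 lists against 3 the smallest exact two-sided permutation p is 0.1.

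In shHDAC6 cells 2 genes had a shorter covered length in every list than in any shCtrl list, against 6.52% of genes, and none a longer one, against 2.84%. TTLL4 gave 1.344, 1.025 and 1.052 kb in shCtrl and 0.879, 0.866 and 1.02 kb in shHDAC6 cells. Its groups are separated by a narrow margin, 1.025 kb in shCtrl replicate 2 against 1.02 kb in shHDAC6 replicate 3. The TTLL4 start peak was present in all 6 lists. TUBB gave 1.37, 1.42 and 1.45 kb against 1.254, 1.24 and 1.278 kb, with the difference at its own start, where the peak was 585 to 690 bases wide in shCtrl and 469 to 484 in shHDAC6 cells. Without shCtrl replicate 3 the shorter count was 4, with TUBA1C and TUBB2A added (13.8% of genes), and without shHDAC6 replicate 2 the longer count was 2, TUBA1B and TUBA4A (7.32%). The TUBB2A start had an ATAC peak in 3 of 3 Ctrl lists, 2 of 3 NextA lists, 1 of 3 shCtrl lists and 0 of 3 shHDAC6 lists, while its upstream site was present in 11 of 12 lists, all but NextA replicate 3.

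The ATAC cover of TUBB4B and of TTLL4 separated the lists of cells with a hairpin from those without, in opposite directions. How many of all genes these lists separate in this way was not counted. For TUBB4B, covered length was 0.905, 1.40 and 1.36 kb in Ctrl, 0.879, 1.14 and 1.17 kb with NextA, 3.28, 3.49 and 1.86 kb in shCtrl and 2.90, 3.49 and 2.84 kb in shHDAC6 cells. All 6 hairpin lists lay above all 6 lists without a hairpin. TTLL4 gave 1.507, 2.587 and 1.717 kb in Ctrl and 1.76, 1.963 and 1.655 kb with NextA, and all 6 of its hairpin lists, given above, lay below these. Between shCtrl and Ctrl, 1 gene (TUBB4B) was longer in every shCtrl list, against 6.49% of genes, and 2 (TUBA4A and TTLL4) were shorter, against 13.2%. Both counts are near the share of all genes. The added length at TUBB4B was a broad, weak peak starting 2248 to 2507 bases after the gene start, toward CIMIP2A, at percentiles from 0.003 to 0.100. The start peak ranked between 26.5 and 72.4 in the 6 lists without a hairpin and between 0.113 and 5.74 in the 6 hairpin lists; the hairpin lists were shorter, with 25878 to 32998 peaks, and ranks in lists of unequal length show no change. CD44 had promoter ATAC peaks in 3 of 3 Ctrl lists and in 0 of 3 shCtrl and 0 of 3 shHDAC6 lists, so the hairpin lists differed from the Ctrl lists outside the set too. A hairpin, any other difference between these cells and the shorter lists cannot be told apart here.

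The other genes of the pathway were taken from a list of 54: further tubulins, folding cofactors, ligases, carboxypeptidases, detyrosinases, deacetylases and stability or severing factors. In Ctrl cells 39 of the 54 had a promoter ATAC peak in every list, or 72.2%, against 52.4% of all genes, and 40 had a PolII peak in both lists, or 74.1%, against 56.1%. HDAC6 promoter peaks were lost with NextA for 7, or 13%, which is near the 15% of all genes. They included TTL, the ligase that restores the tyrosine at the end of α-tubulin (mean percentile 86.2 in Ctrl cells), TBCD, a tubulin folding cofactor (40.8), and TTLL6, a polyglutamylase (38.8). Acetyl-H3 promoter peaks were gained with NextA for 11, or 20.4%, against 20.3% of all genes, among them TUBD1, δ-tubulin (96.1 with NextA), MAP4, a microtubule-stabilising protein (89.4), TTLL12, a ligase family member (83.4), and TBCA, a folding cofactor (70.3).

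No gene of that list gained or lost a PolII or ATAC window peak in any of the 4 comparisons. PolII cover was longer with NextA for 5 of the 54, or 9.26%, where the tubulin and modifier set had 4 of 10 and all genes 14%. With shHDAC6 it was shorter for 19, or 35.2%, against 26.1% of all genes, and longer for 10, or 18.5%, against 20%. The plot of shares called sets the 3 groups of genes side by side. A single gene is 10% of the smaller set.

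**Figure D4:**
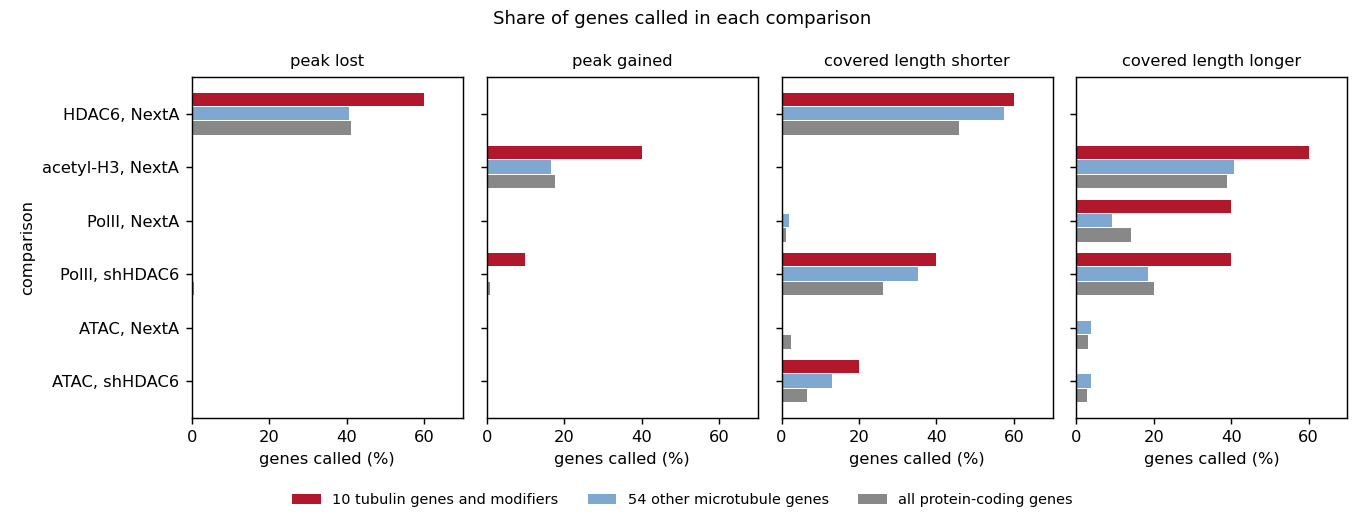
Share of genes called in each comparison, in percent, for the 10 tubulin and modifier genes, 54 other microtubule genes and all protein-coding genes. Panels give window peaks lost and gained, and covered length shorter or longer in every treated list; the bar for acetyl-H3 peaks gained is at 40% for the 10 genes, 16.7% for the 54 and 17.7% for all.

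The genes most like each member were found by Spearman correlation of promoter percentiles over the 32 lists, with 0 for no peak. For TUBB4B they included FBL, the nucleolar protein fibrillarin (rho 0.82), and MPP3 (0.79). The nearest gene was RPL14, a ribosomal protein gene, for TUBB (0.90), AHNAK2 for TUBB2A (0.91), CATSPERG for TUBA1A (0.94), MAP3K8 for TUBA1C (0.93), ZBTB7B for TUBA4A (0.90), HSD17B10 for ATAT1 (0.90) and HAPSTR1 for TTLL4 (0.79). For TUBA1B, 3 genes tied at 0.89, CHTF8, DERPC and UTP4. The points share libraries and list lengths, lists of 4 assays are mixed, and each value is the highest of many, so these are descriptions only.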

How the data were processed

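Peak lists from ChIP, CUT&Tag and ATAC libraries of MDA-MB231 cells were used as deposited, 32 lists for 41 samples, 1 list per sample. Per the submitters' processing notes, the tools included MACS2 2.2.7.1 (a peak caller) and Bowtie2 2.4.4 (an aligner); ChIPseeker 1.28.2, deepTools 3.5.1, SAMtools 1.13 and Trim Galore 0.6.7 are also named, with build hg38 (GRCh38); what each did, and any filter after peak calling, are not given in the sources used here. The deposited values per peak are a fold enrichment (a ratio to background), a score, and −log10 p and −log10 q values, all by the authors' peak caller; ATAC lists also hold a summit offset, not used. Folds were used only to rank peaks within a list.

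Gene positions came from RefSeq (GRCh38.p14). A peak counted with at least 1 base of overlap with the gene body and 5000 bases either side, or with 1000 bases either side of a start. Starts came from the RefSeq promoter table for 15812 genes; for the other 4162 (TTLL4 among them) the end of the gene record with peaks in more lists was used. Lost means a peak in every control list and no treated list, gained the reverse, and longer or shorter that covered length in every treated list lay above or below every control list. The calls were made on all 19974 genes, with Python 3.11.15, pandas 2.3.3 and numpy 2.4.6, and tested on simulated lists. No p-values were computed: an exact permutation test cannot go below 0.333 with 2 lists against 2, or 0.1 with 3 against 3. Counts were repeated with lists of equal length, only peaks of −log10 q 2 or more, 200 bases of overlap, no flank, the promoter window, each list left out and matching by replicate number. In ATAC of Ctrl and NextA cells, deviations in covered length of same-numbered lists correlated at 0.71, 0.35 and 0.37. Lists 2 and 3 correlated about as much with each other's number (0.35 and 0.36), so only number 1 stood apart. Replicate 1 of both groups also had a different lowest −log10 p, so these correlations do not show that the numbers pair samples. Members and gene lists were chosen with earlier results of these data known. The named genes of the list of 54 are up to 4 per comparison with the highest mean percentile; likeness is named for the top 3 genes of TUBB4B and the top gene of the others. Of these, 2 genes are not reported here.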

Additional observations from a re-analysis of the deposited data

How the results depend on the processing

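Of 229 counts under alternatives, over 25 results, 202 stayed within 1.5 times the reported count. This rule compares counts and not the genes behind them, and a 0 that stayed 0 is among the 202. For peaks lost or gained, matching by replicate number repeats the same call, so those counts could not move. With peaks limited to a −log10 q of at least 2, HDAC6 windows lost with NextA fell from 6 to 0, shorter HDAC6 cover from 6 to 0, acetyl-H3 windows gained from 4 to 0, longer acetyl-H3 cover from 6 to 0, and HDAC6 windows marked in all 4 Ctrl lists from 6 to 0. At equal list length these 5 counts were 0, 0, 1, 1 and 1, against 0, 0.00501, 0.436, 0.736 and 9.92% of all genes; the 1 acetyl-H3 gene was TTLL4, which is not among the 4 gained in the full lists. With the promoter window, HDAC6 peaks lost numbered 3, PolII peaks gained with shHDAC6 0 and HDAC6 genes in all 4 Ctrl lists 2; without flanks the last was 3. Under a replicate block, that is with lists matched by number, shorter cover with NextA was 1 for PolII (TUBA1A) and 2 for ATAC (TUBA1C and TUBB4B). With shHDAC6, TUBB2A joined the genes of longer PolII cover (5) and of shorter ATAC cover (3). The other counts under this block stayed as they were, those of peaks lost or gained necessarily so. Same-numbered deviations correlated at 0.77 in PolII and 0.39 in acetyl-H3 with NextA, and at 0.12 in HDAC6, where the number marks the antibody. They did so at -0.0035 in PolII with shHDAC6, and at 0.0096, -0.034 and -0.0073 in ATAC with shHDAC6, and these numbers are not stated to pair samples. With each list left out in turn, shorter HDAC6 cover ranged from 6 to 10, shorter acetyl-H3 cover from 0 to 1, longer PolII cover with NextA from 4 to 7 and shorter from 0 to 4. Shorter ATAC cover with NextA ranged from 0 to 2, and with shHDAC6 longer ATAC cover from 0 to 2 and shorter from 2 to 4. The causes of these moves were not tested. Read depth is unknown, and several HDAC6 and acetyl-H3 lists of replicate 2 hold few peaks with a high −log10 q.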
